A study of Mus musculus with 4 samples.

Results

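The probes described here lost signal in both of 2 mouse cell lines during the first 4 days of adipocyte differentiation. C3H10T1/2 is a multipotent fibroblast line from mouse embryos that can be turned towards fat, bone, cartilage or muscle, and 3T3-L1 is a fibroblast line already committed to the fat lineage. RNA was taken from each line at day 0 and at day 4 after induction, and each of these 4 groups holds 1 array. The labels give the line and the day only: the inducing agents and the culture conditions are not given in the sources used here, and neither line carries a stated genetic change. The array was a 1-colour design for mouse long noncoding RNAs and mRNAs, and the labelled RNA had been depleted of ribosomal RNA and amplified along its whole length.

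The members were chosen by the authors' deposited log2 values. A probe was taken where day 4 minus day 0 was -2 or lower in both lines, that is at least 4-fold lower, and where the scanner software marked its spot as well above background on both day 0 arrays. Probes whose names start with CUST_, and those named for long intergenic RNAs, were left out of the search. Of 58955 probes read, 34394 were above background on both day 0 arrays and 319 of these met the rule. Most of them, 315, belong to the ASMM10P series of identifiers and 4 to the ASMM10UP series. Because the day 4 changes chose the members, these changes are given as a description with no test.

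Preadipocytes that are induced to differentiate eventually leave the cell cycle and replace a fibroblast programme of matrix, cytoskeletal and growth genes with one of lipid uptake and storage. The switch is driven by a cascade of transcription factors that ends with PPARG and the C/EBP proteins, and many genes of the undifferentiated state are turned down along the way. The files pair the member probes with no gene and hold no probe sequence, so none of the 319 could be placed in this programme. The adipocyte, fibroblast, matrix, cell cycle and other marker lists could therefore not be read, and the labelled cell types were not checked against markers. In bulk RNA of this kind, fewer cells that express a transcript and less of it per cell cannot be told apart.

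Signals are given in intensity units, the background-subtracted brightness of a spot. Levels and changes are log2 values after each array was scaled to the 75th percentile of its own probes, which was 321 and 364 units in C3H10T1/2 at days 0 and 4 and 388 and 356 in 3T3-L1. The share of probes above background ran from 59.0% to 63.9% over the 4 arrays. None of the member spots was saturated, not uniform or marked as an outlier. Each member was printed once on an array, so its only error is the scanner software's own, which covers the spot and not the spread between cultures. Brightness depends on the probe as well as on the RNA, and a brighter probe does not mean a more abundant transcript.

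At day 0 the members covered almost the whole brightness range of the array and were somewhat brighter than other detected probes. In C3H10T1/2 their signals ran from 31.8 to 100958 with a median of 378, against a median of 239 for all 34394 probes above background on both day 0 arrays. In 3T3-L1 they ran from 29.9 to 56548 with a median of 372, against 289. The median of the members' mean day 0 level was 0.52 higher on the log2 scale than that of all such probes. By quartile of the mean day 0 level over all such probes, 64 members lay in the dimmest quartile, 74 in the second, 83 in the third and 98 in the brightest. As a share of the probes in each quartile this was 0.744%, 0.861%, 0.965% and 1.14%. The share of probes that met the rule thus rose with the day 0 level, with no test because the rule used the day 0 values.

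The size of the fall varied widely. Over the 319 members the change in C3H10T1/2 had a median of -2.60, a 6.05-fold lower signal, and ran from -6.54 to -1.87. In 3T3-L1 the median was -3.04, an 8.24-fold lower signal, with a range of -8.60 to -1.88. The upper ends lie above -2 because the rule used the authors' scale: 304 of the 319 also passed on the scanner values. After normexp background correction with an offset, which draws low signals together, 93 of the 319 passed and the others fell less than 4-fold in a line. For comparison, the median change of all probes above background on both day 0 arrays was -0.07 in C3H10T1/2, and in 3T3-L1 it was 0.03. By the authors' log2 values, 1.72% of those probes were at least 4-fold lower in C3H10T1/2, 3.39% in 3T3-L1 and 0.927% in both. The last share is the members themselves. The members were 53.8% of the 593 probes lowered that far in C3H10T1/2, and 27.4% of the 1165 lowered that far in 3T3-L1.

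Many members ended below background, so that part of their fall was not measured. At day 4, 148 members were still above background in both lines, 43 in C3H10T1/2 only, 22 in 3T3-L1 only and 106 in neither. In C3H10T1/2 128 members (40.1%) were not above background at day 4, against 3.49% of all probes above background on both day 0 arrays. In 3T3-L1 it was 149 members (46.7%) against 4.29%, and for both lines at once 106 (33.2%) against 1.86%. Loss of detection follows from the fall that chose the members, so these shares describe them and show nothing further.

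Where a member ended went with where it had started. This follows in large part from the rule, since a 4-fold fall takes a dim probe to background. The dimmest quartile ended at a level equal to 87.7 units on the C3H10T1/2 day 0 array. Of the 64 members in the dimmest quartile at day 0, 62 were above background in neither line at day 4 and 0 in both. In the second quartile 36 of 74 were above background in neither line and 9 in both, and in the third 8 of 83 and 46. In the brightest quartile all 98 stayed above background in at least 1 line, 93 of them in both. Of all probes above background on both day 0 arrays, 6.83%, 0.523%, 0.093% and 0% were above it in neither line at day 4, from the dimmest quartile to the brightest. The day 0 medians followed the same order. Members that stayed above background in both lines had median day 0 signals of 1586 in C3H10T1/2 against 1544 in 3T3-L1, and those that ended below it in both had 75.3 and 83.5.

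Bounds give the part of each fall that the arrays could measure. The lowest signal above background was 25.1 units on the C3H10T1/2 day 4 array and 23.3 on the 3T3-L1 day 4 array, and a dim day 4 signal was set to the higher of this floor and its own value. Some spots brighter than the floor were not called above background, such as ASMM10P048671 at 31.0 units in C3H10T1/2, so the bounds are approximate. By these bounds 201 of the 319 members were at least 4-fold lower in both lines and 118 were not. Of the 118, 48 were bounded under 2-fold in at least 1 line. The 4-fold fall held by bounds for 25 of the 106 members below background in both lines, for 29 of the 43 seen only in C3H10T1/2, for 13 of the 22 seen only in 3T3-L1 and for 134 of the 148 seen in both. For the dimmest day 0 quartile the median of the smaller bounded fold was 1.88, and for the brightest it was 5.29.

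Among the 148 members measured on all 4 arrays, the median fall was 5.29-fold in C3H10T1/2 against 7.92-fold in 3T3-L1. The scanner error of a single log2 change had a median of 0.21 in each line and ran from 0.20 to 0.36, well under the falls themselves. A fall of at least 8-fold was reached by 22 of the 148 in C3H10T1/2, by 73 in 3T3-L1 and by 16 in both. A fall of at least 16-fold was reached by 5, by 25 and by 1 member in both lines.

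That member was ASMM10P052682. Its signal was 1068 at day 0 and 69.2 at day 4 in C3H10T1/2, and 1567 and 47.2 in 3T3-L1. The fall was 17.5-fold in C3H10T1/2 (log2 change -4.13 ± 0.24, scanner error) and 30.4-fold in 3T3-L1 (-4.93 ± 0.27). The lines were within 1.5-fold of each other on both days, and both day 4 signals were close to background but above it. ASMM10P039236 changed most evenly of the 8 members with the largest smaller fall. It went from 1587 to 124 in C3H10T1/2, and in 3T3-L1 from 1852 to 118, falls of 14.5-fold and 14.4-fold, so that the lines were close to each other before and after.

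The smaller fall of a member is the smaller of its falls in the 2 lines. The other probes of these 8 differed more between the lines. ASMM10P024123 went from 30264 to 2183 in C3H10T1/2 (15.7-fold) and from 5984 to 90.4 in 3T3-L1 (60.8-fold), and was brighter in C3H10T1/2 on both days. ASMM10P057527 went from 3437 to 336 in C3H10T1/2 (11.6-fold) and from 3865 to 159 in 3T3-L1 (22.2-fold). These 2 probes ended lower in 3T3-L1. ASMM10P025527 started and ended higher in 3T3-L1, with 3072 and 310 in C3H10T1/2 (11.2-fold) and 12034 and 513 in 3T3-L1 (21.5-fold). ASMM10P007331 went from 1006 to 114 in C3H10T1/2 (10.03-fold) and from 701 to 48.2 in 3T3-L1 (13.4-fold). Every one of these probes was above background on all arrays, so the folds are measured and not bounds. ASMM10P028426 had a large line difference at day 0 and kept it, with 7540 and 764 in C3H10T1/2 (11.2-fold) and 418 and 38.4 in 3T3-L1 (9.98-fold). ASMM10P019822 changed the order of the lines, going from 5084 to 590 in C3H10T1/2 (9.75-fold) and from 11073 to 298 in 3T3-L1 (34.1-fold).

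The 5 members with the highest day 0 level all fell further in 3T3-L1 than in C3H10T1/2, and none ended near background. ASMM10P033014, the brightest, went from 100958 to 13394 in C3H10T1/2 (8.54-fold) and from 56548 to 2002 in 3T3-L1 (25.9-fold). ASMM10P019153 went from 86050 to 13833 in C3H10T1/2 (7.05-fold) and from 35031 to 1125 in 3T3-L1 (28.6-fold). At day 0 these probes were brighter in C3H10T1/2, and the gap had widened by day 4. ASMM10P033953 had the widest such gap, with 83477 and 20407 in C3H10T1/2 (4.63-fold) and 8821 and 520 in 3T3-L1 (15.6-fold). ASMM10P021291 was brighter in 3T3-L1 at day 0 and dimmer there at day 4, with 18336 and 3736 in C3H10T1/2 (5.56-fold) and 38923 and 1917 in 3T3-L1 (18.6-fold). ASMM10P033765 changed least of the 5, from 23499 to 6805 in C3H10T1/2 (3.91-fold) and from 28658 to 4727 in 3T3-L1 (5.56-fold).

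Of the members that reached background in both lines, ASMM10P048754 had the largest bounded fall. Its signal was 376 at day 0 and 7.09 at day 4 in C3H10T1/2, and 2451 and 5.80 in 3T3-L1. Against the floor of the day 4 arrays it was at least 17.0-fold lower in C3H10T1/2 and at least 96.4-fold lower in 3T3-L1, and both day 4 signals lay where the scanner values have no order. ASMM10P028451 went from 1159 to 28.3 in C3H10T1/2 (46.4-fold lower) and from 181 to 7.60 in 3T3-L1 (at least 7.11-fold lower). ASMM10P000948 went from 224 to 29.4 in C3H10T1/2 (8.65-fold lower) and from 212 to 10.5 in 3T3-L1 (at least 8.34-fold lower). ASMM10P048671 went from 255 to 31.0 in C3H10T1/2 (9.30-fold lower) and from 192 to 5.79 in 3T3-L1 (at least 7.54-fold lower). These probes were clearly detected before induction and were not called above background on either array afterwards. The C3H10T1/2 folds of ASMM10P028451, ASMM10P000948 and ASMM10P048671 use their own day 4 signals, which lay above the floor, and are not bounds.

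The rule's threshold cut through a continuous range. Just inside it, ASMM10P024900 had authors' log2 changes of -2.03 (C3H10T1/2) and -2.00 (3T3-L1), and ASMM10P053677 had -2.00 and -3.25. Just outside it, ASMM10P052742 had -1.998 and -3.12, and ASMM10P025496 had -2.76 and -1.99. A further 274 probes were lowered at least 4-fold in C3H10T1/2 only, of which 124 were lowered 2-fold to 4-fold in 3T3-L1 and 50 had a value above 0 there. In 3T3-L1 only there were 846, of which 419 were lowered 2-fold to 4-fold in C3H10T1/2, and 113 had a value above 0 there.

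The fall was usually larger in 3T3-L1. Of the 148 members measured on all arrays, 117 fell more in 3T3-L1 and 31 more in C3H10T1/2, and the median difference between the responses (3T3-L1 change minus C3H10T1/2 change) was -0.56. The median over all 32359 probes above background on all 4 arrays was 0.09, of the opposite sign. The fall was at least 2-fold greater in 3T3-L1 for 42 of the 148 (28.4%), against a background of 8.68%, and at least 2-fold greater in C3H10T1/2 for 6 (4.05%), against 6.41%. The remaining 100 members differed by less than 2-fold. The background shares count all 32359 probes by the same difference between the responses, whether a probe fell or rose, so they are not shares of falling probes. Both changes were used by the rule, more probes passed its threshold in 3T3-L1 than in C3H10T1/2, and with 1 array per group the difference between the responses has no test.

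The extremes in either direction were measured on all 4 arrays. ASMM10P007176 fell most strongly towards 3T3-L1, from 4455 to 663 in C3H10T1/2 (7.61-fold) and from 19199 to 200 in 3T3-L1 (88.1-fold), a difference between the responses of -3.53 on the log2 scale. ASMM10P007209 had -2.73, going from 2986 to 353 in C3H10T1/2, and in 3T3-L1 from 6042 to 87.3. Both were brighter in 3T3-L1 at day 0 and dimmer there at day 4. ASMM10P032977 had -2.48, with signals of 11006 and 2245 in C3H10T1/2 against 6901 and 204 in 3T3-L1. ASMM10P000992 had -2.26, with 732 and 189 in C3H10T1/2 against 1520 and 66.3 in 3T3-L1.

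On the other side, ASMM10P033678 went from 1756 to 45.4 in C3H10T1/2 (43.8-fold) and from 300.3 to 54.1 in 3T3-L1 (5.09-fold), a difference between the responses of 3.10. ASMM10P046475 had 2.19, with signals of 710.1 and 39.6 in C3H10T1/2 against 165 and 34.1 in 3T3-L1. All 4 probes of this kind started higher in C3H10T1/2, and these ones ended at nearly the same low signal in both lines. ASMM10P000101 had 2.06, with 4578 and 203 in C3H10T1/2 against 346 and 51.8 in 3T3-L1. ASMM10P031929 had 1.90, with 5719 and 354 in C3H10T1/2 against 565 and 106 in 3T3-L1, and so both stayed brighter in C3H10T1/2.

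The members also differed between the lines before induction. At day 0, 186 were brighter in C3H10T1/2, and 133 in 3T3-L1, and the median difference (3T3-L1 minus C3H10T1/2) was -0.34, against -0.06 over all probes above background on both day 0 arrays. Of the members 92 (28.8%) were at least 2-fold brighter in C3H10T1/2, against 5.63% of those probes, and 61 (19.1%) at least 2-fold brighter in 3T3-L1, against 6.15%. The rule used the day 0 values of both lines and no group had a replicate array, so these shares are a description and were not tested. Among the members, line differences of at least 2-fold at day 0 lay in both directions. The widest was that of ASMM10P051247, with 8638 units in C3H10T1/2 against 40.5 in 3T3-L1, a 257-fold difference after scaling, and in the other direction ASMM10P024742 had 86.8 and 9462, a 90.3-fold difference. At day 4 they had 2545 and 5.96, and 7.23 and 556, so each stayed above background in its brighter line alone. In its dimmer line the fall was at least 1.59-fold for ASMM10P051247 and at least 3.92-fold for ASMM10P024742. These probes and ASMM10P031428, which went from 124 to 29.4 in C3H10T1/2, and in 3T3-L1 from 4831 to 81.8, were singled out after their values had been seen.

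By day 4 the balance had moved further towards C3H10T1/2. Among the 148 members measured on all arrays, C3H10T1/2 was the brighter line for 85 at day 0 and for 114 at day 4, and the median line difference was -0.24 at day 0 and -0.83 at day 4. In 82 C3H10T1/2 was the brighter line on both days, in 31 3T3-L1 was, in 32 3T3-L1 was brighter at day 0 and dimmer at day 4, and in 3 the order turned the other way. Of the 213 members above background in at least 1 line at day 4, 90 (42.3%) were at least 2-fold brighter in C3H10T1/2 by bounds, against 7.65% of all such probes, and 22 (10.3%) at least 2-fold brighter in 3T3-L1, against 5.52%. The same 4 arrays give the line differences and the day 4 changes, so these counts restate in part the larger falls in 3T3-L1.

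A difference between the lines over both days was fitted with limma on the whole table, with a term for day. Its residual is the difference between the changes that the rule used, so its calls among the members are a description and no test of them. At a Benjamini-Hochberg adjusted p under 0.05 the fit called 33 of the 319 members (10.3%) brighter in C3H10T1/2 and 16 (5.02%) brighter in 3T3-L1. Over all 38333 probes fitted the shares were 1.30% and 1.71%, and nothing is read from setting the members beside them. Of the 33, 13 were above background on all 4 arrays, 17 at day 4 in C3H10T1/2 only and 3 at day 4 in neither line. Of the 16, 3 were above background on all 4 arrays and 13 at day 4 in 3T3-L1 only. The size of such a difference is uncertain where an array was at background. With limma fitted to probes above background on all 4 arrays, 24 and 6 of 148 members were called, and 674 of all 32829 probes. Without the term for day limma called 0 members in either direction, with 10 at an unadjusted p under 0.05, and 234 of all 38333 probes. In that fit the falls that chose the members count as residual spread, so the lack of calls among them follows from the rule. After background correction by normexp with an offset, limma called 3 and 0, with 130 at an unadjusted p under 0.05, and 260 of all 38333 probes. In the main limma fit 163 members (51.1%) had an unadjusted p under 0.05, against 13.9% of all probes fitted.

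Of the called members measured on all 4 arrays, ASMM10P033953 had the widest line difference, -4.39 on the log2 scale as the mean of the days. ASMM10P028426 had -4.36 and ASMM10P024123 had -3.59. All were brighter in C3H10T1/2 on both days. The called members brighter in 3T3-L1 and measured on all arrays were ASMM10P005521, with 179 and 38.4 units in C3H10T1/2 against 825 and 142 in 3T3-L1, ASMM10P018182, with 635 and 125 against 3330 and 375, and ASMM10P010055, with 203 and 43.9 against 965 and 136. They were named because they were the only 3.

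The members were not scattered evenly over the numbers of the array maker's identifiers. Of the 315 members of the ASMM10P series, 47 (14.9%) had another member at the number directly before or after their own. Of the 33760 other ASMM10P probes above background on both day 0 arrays, 368 (1.09%) had a member at such a number. The 47 formed 22 runs, 19 of 2 probes and 3 of 3 probes. Of the 368 probes that adjoin a member, 46 (12.5%) were lowered at least 2-fold in both lines without meeting the rule, against 3.57% of all 34075 other probes above background on both day 0 arrays. What consecutive numbers mean is not given in the sources used here, and whether such probes read the same transcript was not tested.

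Probes of a run mostly shared the sign of the line difference at day 0, but not always that of the line bias of the fall. The line difference at day 0 had 1 sign in 19 of the 22 runs, and its median range within a run was 0.44 on the log2 scale. Over all members it had quartiles of -1.14 and 0.80 and a standard deviation of 1.84. These are not the same measure as a range within a run. How often members outside runs share a sign was not counted. ASMM10P026616 and ASMM10P026617 were nearly alike, with 811 and 173 against 799 and 188 units in C3H10T1/2 at days 0 and 4, and 4742 and 508 against 4118 and 421 in 3T3-L1. The bright probe ASMM10P019153 lay between ASMM10P019152 and ASMM10P019154. These went from 147 to 6.70 and from 1272 to 26.7 in C3H10T1/2, and from 46.3 to 5.94 and from 157 to 6.04 in 3T3-L1, so the 3 differed widely in brightness but were all brighter in C3H10T1/2 at day 0. ASMM10P033014 was followed by ASMM10P033015, which went from 530.3 to 6.57 in C3H10T1/2, and in 3T3-L1 from 165 to 6.02. The difference between the responses was -1.60 for ASMM10P033014 and 1.87 for ASMM10P033015. It was -2.02 for ASMM10P019153, against 1.80 for ASMM10P019152 and 1.18 for ASMM10P019154. The 3 positive values rest on day 4 signals below background in both lines. For ASMM10P026616 and ASMM10P026617 the difference had 1 sign, at -0.69 and -0.90.

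ASMM10P033678, with the fall most biased to C3H10T1/2 among the 148 members measured on all arrays, also had a partner. ASMM10P033679, next to it, went from 515 to 6.26 in C3H10T1/2, and in 3T3-L1 from 131 to 7.96. A stretch with 1 gap held ASMM10P036702 to ASMM10P036704 and ASMM10P036706 with ASMM10P036707, all brighter in 3T3-L1 at day 0. ASMM10P036704 went from 1100 to 185 in C3H10T1/2, and in 3T3-L1 from 3098 to 163, ASMM10P036706 from 3459 to 672 and from 9990 to 766, and ASMM10P036707 from 1608 to 230.3 and from 5519 to 362. The probe between them, ASMM10P036705, did not share the fall, with 6090 and 9815 units in C3H10T1/2 against 7741 and 6563 in 3T3-L1. Adjoining numbers thus did not always go with a like change. In all, 6 probes above background on both day 0 arrays lay between 2 members without being one, of which ASMM10P025671 had log2 changes of -2.10 and -1.30 and ASMM10P019155 had 0.88 and -0.39. The runs were examined after the members were known, and the probes named from them were chosen after their values had been seen.

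The members were spread over the surface of the array. In the 4 quadrants of the array the members were 1.03%, 0.861%, 0.937% and 0.884% of the probes above background on both day 0 arrays. Of the ASMM10UP series, whose meaning is not given in the sources used here, 4 of 319 such probes (1.25%) were members, against 0.924% of the ASMM10P probes. ASMM10UP548 went from 630 to 132 in C3H10T1/2, and in 3T3-L1 from 229 to 30.4. ASMM10UP154 went from 215 to 54.4 and from 293 to 35.8. Both stayed above background, while ASMM10UP853, with 109 and 22.2 against 252 and 23.8, and ASMM10UP854, with 69.7 and 6.32 against 158 and 4.93, did not in either line.

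Probes that rose at least 4-fold in both lines were read in the same way for contrast. There were 465, above background on both day 4 arrays, of which 140 (30.1%) were not above background on either day 0 array. Of the lowered members 33.2% were below background on both arrays of the other day. Among the 255 raised probes measured on all arrays, 111 (43.5%) changed more in 3T3-L1, with median changes of 3.14 in C3H10T1/2 against 2.89 in 3T3-L1. Among the lowered members the corresponding share was 79.1%. Both sets were chosen on these changes, and the difference between the shares was not tested.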

How the data were processed

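The members and lists were chosen with earlier results of these data known. The authors' deposited scanner files hold an intensity per spot, background-subtracted within its array by Agilent Feature Extraction 11.0.1.1, per the file headers, with detection flags. The authors' deposited table holds log2 values whose method is not given in the sources used here; it is not centred, has a median of 5.93 in each column and follows the log2 scanner intensity of its array in the same direction (r from 0.9994 to 1.000 over 60804 probes). Membership came from that table, as did the shares and counts of probes lowered at least 4-fold in a line and the changes given beside the threshold. The other levels, changes and line differences came from the scanner intensity, divided by the 75th percentile of its array over 60900 noncontrol probes. Of these, 96 are not in the table. Other scores, such as the flags, were deposited per spot as 0 or 1.

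With 1 array per group nothing within a line was tested. The line contrast was fitted with limma 3.58.1 (R 4.3.3) on 38333 probes above background on at least 2 arrays; its estimates were checked on simulated data with a common spread for all probes. Because the rule used the changes that form its residual, its calls among the members are a description. Errors of single changes combine the scanner software's signal errors. Named probes are the 8 with the largest smaller fall, the 5 brightest at day 0, the 4 most biased to each line (the largest falls and the biased probes among members above background on all arrays), the 4 with the largest bound below background, and 2 on each side of the threshold.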

Additional observations from a re-analysis of the deposited data

How the results depend on the processing

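Of 60 values under the alternatives, 46 stayed within 1.5 times of their main count or within the spread over members, and none changed sign. The members came out as 319 probes under quantile normalization (all 319 shared), 352 with the 75th percentile of detected probes (313 shared) and 316 from the scanner values (304 shared). Normexp background correction with an offset, followed by quantile normalization, left 93 probes, all of them members, and a median fall of -1.85 against -2.92 as the mean of the lines. Under it 54 and 12 members were at least 2-fold brighter in C3H10T1/2 and in 3T3-L1 at day 4, and limma called 3 and 0 of them for line (130 at an unadjusted p under 0.05, 35 of them brighter in 3T3-L1). All 319 had lower values at day 4 in both lines under each of these scalings, 212 of them at least 2-fold with normexp, and between 105 and 120 of the 148 measured on all arrays fell more in 3T3-L1. With normexp the median difference between the responses over the 319 members was -0.15, against -0.49 in the main values. Their median day 0 line difference was -0.20 against -0.34. These shifts lay within the spread over members and count among the 46. Over the 148 the median difference between the responses was -0.45 with normexp against -0.56. A 3-fold threshold gave 596 probes, an 8-fold threshold 67, and detection on all arrays 148, by construction. For line, limma called 6 members brighter in 3T3-L1 with detection on all arrays, where 148 members were tested. It called 31 and 74 (3T3-L1 and C3H10T1/2) without a filter, where 3436 of all 60900 probes were called. Without the day term it called 0 and 0, which follows from the rule because the members' falls then count as residual spread. For normexp and the fit without a filter the cause was not tested. The day term pairs the lines within each day. With 1 array per group and no replicate numbers in the labels, samples could not be paired in any other way and no replicate could be left out. With 1 array per group, no value here measures the spread between cultures, and signals under about 25 units have no order.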

Other observations

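A further 26 probes of the same series met both falls but were not above background on both day 0 arrays. Of these, 25 were above background at day 0 in 3T3-L1 only and 1 in C3H10T1/2 only, and 2 were above background on a day 4 array. Among the classes left out of the search, none of the 15 probes with CUST_ names, 1104 probes named for human lincRNAs, 649 named for mouse lincRNAs and 83 named MM9LINCRNAEXON met the rule. Above background on both day 0 arrays were 15, 234, 150 and 26 of them. A single probe of the last class, MM9LINCRNAEXON10627+_P1, met both falls without the detection flags, with 22.3 and 6.08 units in C3H10T1/2 and 76.5 and 9.78 in 3T3-L1.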
